A study of Rattus norvegicus with 12 samples.

Results

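The genes described here are 48 DNA replication and S-phase genes of INS-1E cells, a rat insulinoma line that secretes insulin and is used as a β-cell model. They were chosen by symbol, with no measured value in the rule, though earlier results of these data were known. They were sorted into 8 classes by the step they serve. All 48 passed the filter on low counts (CPM, counts scaled to the library's total, above 1 in 2 or more of 12 libraries), out of 14324 genes that passed and 34034 symbols in the table. PolyA RNA was sequenced from wild-type INS-1E cells in 4 groups of 3 libraries, each labelled a biological replicate. Untreated cells received no cytokine. IL-1βlow cells were preconditioned: over 72 h they stayed in 1 medium, to which IL-1β was given each day at 10 pg/ml. CYT cells received a challenge of 16 h with IFN-γ at 5 ng/ml and IL-1β at 100 pg/ml, and IL-1βlow + CYT cells received the 72 h of IL-1βlow, new medium and then the same challenge. Whether the cells that were not challenged also got new medium was not stated in the sources used here. The cells of all 4 groups are 1 tumour line that divides in culture, whereas adult β-cells divide rarely. The labels do not say whether the replicates came from separate cultures grown on separate days, so p-values measure the spread between these libraries.

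Before a cell divides it copies its genome once, and it does so in steps that different proteins serve. In G1, the origin recognition complex, Cdc6 and Cdt1 load the Mcm2 to Mcm7 ring onto origins (licensing). In S phase, Cdc45 and the GINS complex join the ring to form the active helicase, DNA polymerases copy both strands on the sliding clamp Pcna, and ribonucleotide reductase supplies deoxynucleotides. Most of these genes are transcribed late in G1 under E2F transcription factors, so their mRNAs are low in resting cells and high in cycling cells.

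The libraries held between 15812640 and 20246806 counts (median 17461925.5). A member had between 58 counts (Ccne2) and 6215 counts in a library, with a median of 740, and these reads carry no molecular identifiers, so depth bounds counting error only. The β-cell genes Ins1 (6620 to 25800 CPM), Iapp (914 to 3150 CPM) and Pdx1 (79.5 to 315 CPM) were present in every library, and Ucn3 was under the filter. Acinar Cpa1 and Prss1 and the leukocyte gene Ptprc were at 0 CPM in all libraries, and 4 of 12 markers of other cell types passed the filter. The α-cell gene Gcg, which made up nearly all of their summed level, moved in the direction of most members, at 185 to 367 CPM in untreated, 155 to 259 CPM in IL-1βlow, 24.2 to 63.1 CPM in CYT and 73.1 to 151 CPM in IL-1βlow + CYT libraries (log2 fold change with CYT -2.83, adjusted p = 2.2e-05, edgeR). The summed level of the 4 was 187.6 to 368.9 CPM in untreated, 158.3 to 261 CPM in IL-1βlow, 26.75 to 66.39 CPM in CYT and 76.44 to 154.1 CPM in IL-1βlow + CYT libraries, and its part in the members' changes was not tested. The ribosomal RNA gene Rn45s took 6.89 to 10.33% of the counts in untreated, 8.329 to 9.845% in IL-1βlow, 7.87 to 9.362% in CYT and 9.959 to 11.11% in IL-1βlow + CYT libraries. With Rn45s left out of the table, 35 members were lower and 4 higher with CYT, and 33 were higher and 1 lower in IL-1βlow + CYT than in CYT cells, the same counts as with it.

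Most members were lower after CYT, and most of those were higher again where IL-1βlow came first. The 48 genes together held 0.3217, 0.3431 and 0.3567% of all counts in the untreated libraries. They held 0.3576, 0.3557 and 0.3582% in IL-1βlow, 0.2418, 0.2418 and 0.2267% in CYT, and 0.3347, 0.3596 and 0.3361% in IL-1βlow + CYT libraries. The CYT libraries lay below all 9 others, and the other 3 groups overlapped. Fold changes were then estimated with edgeR's quasi-likelihood test over all 12 libraries, with Benjamini-Hochberg adjustment over the 14324 genes, and a gene is said to have risen or fallen at an adjusted p under 0.05. With CYT against untreated cells, 35 of 48 members (72.9%) fell, against 31.7% of all genes, and 4 members (8.33%) rose, against 30.6% of all genes. The median log2 fold change was -0.61 over the members and -0.04 over all genes. In bulk RNA, fewer cells in S phase and less of each mRNA per cell cannot be told apart.

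In the comparison of IL-1βlow + CYT with CYT cells, 33 of 48 members (68.8%) were higher, against 25.3% of all genes, and 1 member (2.08%) was lower, against 25.5%. Without the block, the median log2 difference was 0.55 over the members and 0.02 over all genes. Both comparisons use the same 3 CYT libraries, so a low CYT value enters each of them. Without any test, all 3 CYT libraries lay below all 3 untreated libraries for 36 members (75%), as they did for 35.3% of all genes. All 3 IL-1βlow + CYT libraries lay above all 3 CYT libraries for 31 members (64.6%), as they did for 26.8% of all genes. The map of the 48 genes by library shows these shifts as columns.

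**Figure D1:**
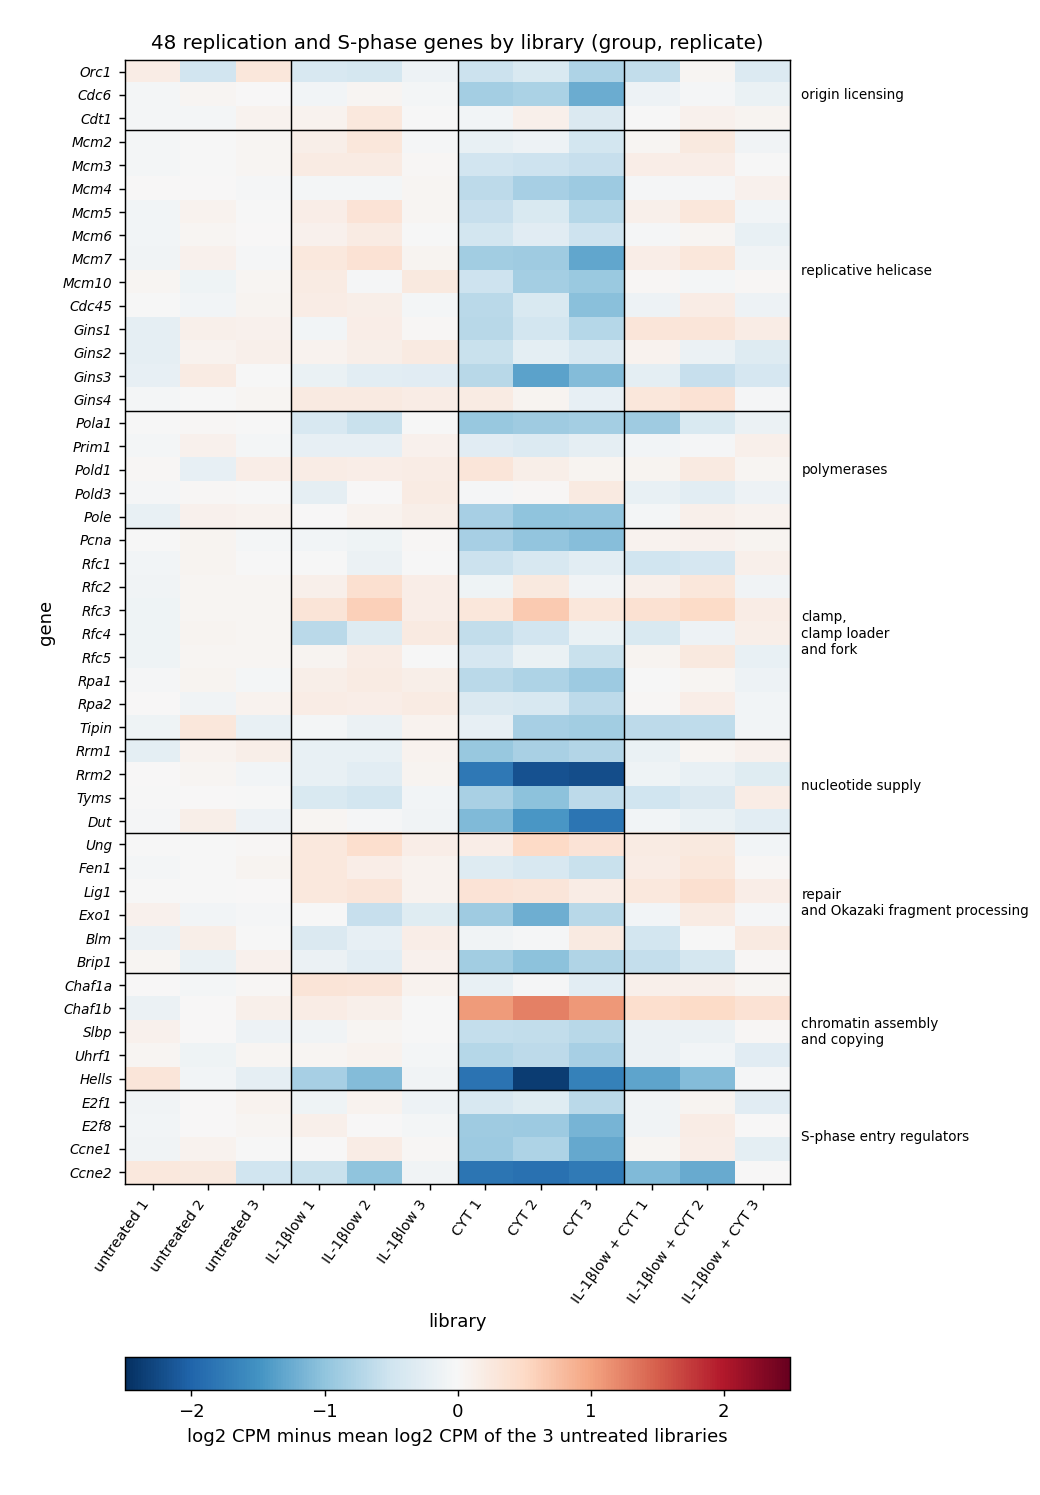
Each row is a gene, each column a library, and colour gives log2 CPM minus the gene's mean over the 3 untreated libraries, with classes set apart by lines. The 3 CYT columns are blue for most rows, Chaf1b is red there, and the mean over the 48 genes runs from -0.65 to -0.53 in CYT libraries and from -0.11 to -0.01 in IL-1βlow + CYT libraries.

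The study's own thresholds are stricter and ask for a log2 change of more than 1 in size (0.6 for IL-1βlow alone) at an adjusted p below 0.01. Few members moved that far. With CYT, Mcm7, Gins3, Rrm2, Dut, Hells and Ccne2 passed downward (6 members, 12.5%), which is close to the 11.6% of all genes that did, and Chaf1b passed upward (1 member, 2.08%), against 10% of all genes. Between IL-1βlow + CYT and CYT cells, Mcm7, Pcna, Rrm2, Dut, Hells and E2f8 passed upward (6 members, 12.5%), against 6.54% of all genes, and 0 passed downward, against 5.92%. That count of 6 rested on values near the limit. It was 3 without untreated replicate 1, IL-1βlow replicate 1 or untreated replicate 2, where Pcna stood at 1.00 and E2f8 at 0.99 and Hells had an adjusted p of 0.01 to 0.013 in edgeR's test. Of all genes, 1750 of 14274, 1748 of 14292 and 1737 of 14298 then passed in either direction. With all libraries, 937 of 14324 genes passed upward and 848 downward. The count of members was also 3 without CYT replicate 3, where Mcm7 stood at 0.98, Pcna at 0.95 and E2f8 at 0.91, and Hells at 1.36 with an adjusted p of 0.012. There 1534 of 14267 genes passed in either direction. At 3 of 48, the members' share lay below the either-direction share of all genes in each of these fits. That share also counts genes passing downward, so it is not comparable with the 6.54% that passed upward with all libraries. The upward share of all genes in these fits is not given here. With the replicate number as a block it was 7, with Ccne2 added (1.12, adjusted p = 0.0068, edgeR).

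**Figure D2:**
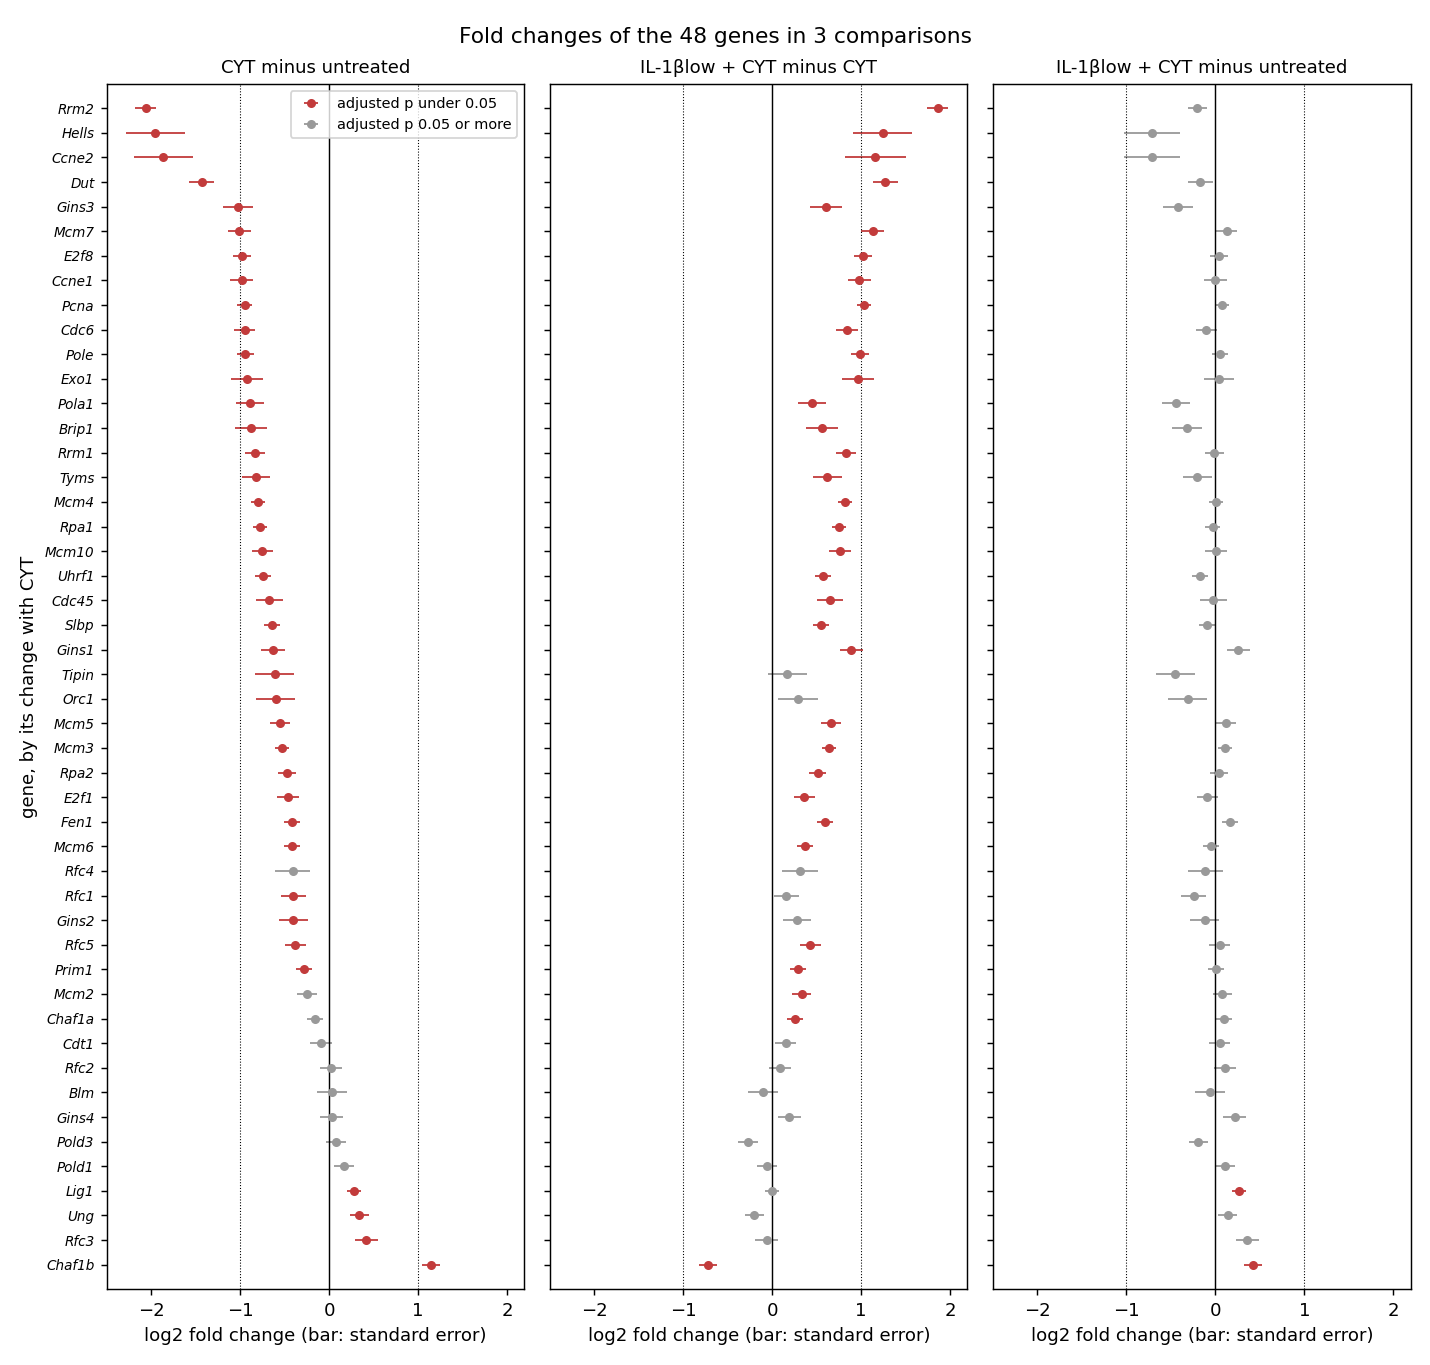
Points are edgeR log2 fold changes of each gene in 3 comparisons, bars are standard errors, red marks an adjusted p under 0.05, and dotted lines mark -1 and 1. In the left panel 35 genes lie in red below 0 and 4 above, in the middle panel 33 lie in red above 0, and in the right panel 2 genes are red.

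The promoters are shown for 5 members that illustrate the directions in these data. Mcm7 (log2 fold change -1.01 with CYT), Dut (-1.43) and Hells (-1.95) fell, whereas Ung (0.34) and Chaf1b (1.14) rose. The sequences are RefSeq windows of the rat assembly GRCr8, 250 bases up to the start of transcription, written 5′ to 3′ on the gene's strand. They lie at chr12:22163179-22163428 on the minus strand for Mcm7, chr1:246113879-246114128 on the plus strand for Hells, chr3:132952180-132952429 on the plus strand for Dut, chr12:48154046-48154295 on the minus strand for Ung and chr11:46670400-46670649 on the plus strand for Chaf1b. Capitals mark an E2F word, here any of TTTCCCGC, TTTGGCGC, TTTCGCGC and TTTGCCGC on either strand.
Mcm7: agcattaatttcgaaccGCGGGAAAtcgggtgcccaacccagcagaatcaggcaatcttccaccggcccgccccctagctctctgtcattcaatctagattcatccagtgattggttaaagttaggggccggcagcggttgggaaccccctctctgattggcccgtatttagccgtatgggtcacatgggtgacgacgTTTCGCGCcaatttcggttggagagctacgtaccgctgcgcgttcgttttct
Hells: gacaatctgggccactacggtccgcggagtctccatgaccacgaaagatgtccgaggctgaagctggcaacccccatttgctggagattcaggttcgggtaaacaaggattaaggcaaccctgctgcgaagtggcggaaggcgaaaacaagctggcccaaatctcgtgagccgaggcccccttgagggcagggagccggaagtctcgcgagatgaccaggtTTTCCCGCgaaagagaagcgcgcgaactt
Dut: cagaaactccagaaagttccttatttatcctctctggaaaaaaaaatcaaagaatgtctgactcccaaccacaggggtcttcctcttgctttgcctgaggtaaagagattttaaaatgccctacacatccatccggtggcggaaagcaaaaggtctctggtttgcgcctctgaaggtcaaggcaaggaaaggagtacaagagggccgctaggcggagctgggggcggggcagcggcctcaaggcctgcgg
Ung: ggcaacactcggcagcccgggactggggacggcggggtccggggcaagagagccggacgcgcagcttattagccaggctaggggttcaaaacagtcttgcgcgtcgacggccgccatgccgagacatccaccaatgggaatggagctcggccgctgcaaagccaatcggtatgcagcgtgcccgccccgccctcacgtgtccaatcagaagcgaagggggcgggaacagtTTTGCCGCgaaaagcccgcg
Chaf1b: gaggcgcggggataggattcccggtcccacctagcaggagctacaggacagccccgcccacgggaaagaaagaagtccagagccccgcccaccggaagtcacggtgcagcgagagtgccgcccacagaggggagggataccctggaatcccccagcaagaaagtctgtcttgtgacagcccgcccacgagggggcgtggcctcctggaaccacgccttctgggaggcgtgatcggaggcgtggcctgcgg
Mcm7 holds a word 233 bases before its start and another 52 bases before it, whose last base is also the first base of a CCAAT word. Hells holds one at 29 bases and Ung one at 20 bases, while the Dut and Chaf1b windows hold none of these words.

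RefSeq windows of 300 bases (250 before and 50 after the start) matched 39 of the 48 members. Orc1, Cdc6, Mcm4, Gins4, Rrm2, Blm, E2f1, E2f8 and Ccne2 had no entry. An E2F word stood in 19 of the 39 windows (48.7%) and in 716 of all 33469 windows of the table (2.14%). All windows here were not limited to the 14324 genes that passed the filter. Their shares are therefore not shares of expressed genes, which were not computed. Among members with a window, an E2F word stood in 13 of 28 that fell with CYT (46.4%), in 3 of 4 that rose (75%; Rfc3, Ung and Lig1) and in 3 of 7 that did neither (42.9%; Cdt1, Mcm2 and Pold3). Differences between these shares were not tested. Only 4 members with a window rose, and Rrm2, E2f8 and Ccne2 are among those that fell without a window. A match is a description of the window and not a bound site. CCAAT, on either strand, stood in 23 member windows (59%) and 37.5% of all windows. The words TTTGAA and TTCGAA, forms of the CHR element of genes expressed late in the cycle, stood in 8 member windows (20.5%) and 19.7% of all windows.

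For the class counts that follow, 31.7% of all genes fell with CYT and 30.6% rose. Between IL-1βlow + CYT and CYT cells 25.3% were higher and 25.5% lower. The class counts were not tested against these shares. Of the 3 licensing genes, Cdc6 and Orc1 fell with CYT and Cdt1 did not pass the test. Cdc6, the ATPase that loads the Mcm ring, stood at 20.1, 21.6 and 21.0 CPM in untreated and at 20.0, 21.5 and 20.1 CPM in IL-1βlow libraries. It stood at 11.6, 12.1 and 8.79 CPM in CYT and at 19.1, 20.6 and 18.6 CPM in IL-1βlow + CYT libraries. The CYT libraries lay below the other 9, which overlapped. Cdc6 fell by 0.95 on the log2 scale (SE 0.12, adjusted p = 1.4e-05, edgeR), to 51.9% of the untreated level, and was 0.84 higher in IL-1βlow + CYT than in CYT cells (SE 0.12, adjusted p = 7e-05). Orc1, the largest subunit of the origin recognition complex, fell by 0.60 (adjusted p = 0.03, edgeR) and stood 0.29 above CYT after IL-1βlow, which did not pass (adjusted p = 0.3) and was 0.09 and 0.16 without IL-1βlow + CYT replicate 2 and CYT replicate 3. Untreated replicate 2, at 4.97 CPM, lay within the 4.04 to 5.30 CPM of the CYT libraries for Orc1. Without untreated replicate 1 or 3, or CYT replicate 1 or 3, the fall of Orc1 was -0.57 to -0.46 and did not pass. Cdt1, which Geminin and proteolysis control at the protein level, ranged from 28.9 to 40.6 CPM in CYT and from 35.7 to 39.6 CPM in untreated libraries (log2 fold change -0.09).

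Of the 12 helicase genes, 10 fell with CYT and 10 were higher in IL-1βlow + CYT than in CYT cells. Mcm7, a subunit of the ring, stood at 127, 144 and 132 CPM in untreated and at 161, 172 and 141 CPM in IL-1βlow libraries. It stood at 73.2, 72.7 and 54.5 CPM in CYT and at 150, 164 and 126 CPM in IL-1βlow + CYT libraries. All CYT libraries were well below the rest, and the untreated and IL-1βlow + CYT libraries overlapped. Mcm7 fell by 1.01 (SE 0.13, adjusted p = 9.1e-06, edgeR) and was 1.13 higher after IL-1βlow (SE 0.13, adjusted p = 6e-06). Its host transcript also carries the microRNA genes Mir106b, Mir25 and Mir93. Without IL-1βlow + CYT replicate 1, untreated replicate 2, IL-1βlow replicate 1 or 2, or CYT replicate 3, the fall of Mcm7 was -0.99 to -0.85 and so under the study's limit of 1.

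The other ring subunits had smaller values. Mcm4 fell by 0.80, Mcm5 by 0.55, Mcm3 by 0.53 and Mcm6 by 0.42 on the log2 scale. Mcm2 stood at -0.25 and did not pass (adjusted p = 0.061, edgeR), and without IL-1βlow replicate 3 or replicate 2 or 3 of IL-1βlow + CYT it passed at -0.25, as it did without CYT replicate 2 at -0.32, while without CYT replicate 3 it stood at -0.12 (adjusted p = 0.35). All 6 were higher in IL-1βlow + CYT than in CYT cells, from 0.33 for Mcm2 to 1.13 for Mcm7. The call for Mcm2 there was lost (0.20 to 0.32) without replicate 1 or 3 of CYT, replicate 1 or 2 of IL-1βlow + CYT, or untreated replicate 2. The 6 subunits sit in equal numbers in the ring, and their mRNA levels in CYT cells ran from 49.7% (Mcm7) to 84.1% (Mcm2) of untreated, differences between genes that were not tested.

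Gins3, of the GINS complex that joins Cdc45 and the ring, stood at 9.17, 12.3 and 10.6 CPM in untreated and at 9.49, 8.83 and 8.70 CPM in IL-1βlow libraries. It stood at 6.57, 4.20 and 5.01 CPM in CYT and at 8.94, 7.16 and 7.96 CPM in IL-1βlow + CYT libraries. The 4 groups were low in counts, the CYT libraries lay lowest, and the IL-1βlow + CYT libraries lay between them and the untreated ones with no overlap on either side. Gins3 fell by 1.02 (SE 0.17, adjusted p = 0.00016, edgeR) and was 0.60 higher after IL-1βlow (SE 0.18, adjusted p = 0.011). Its fall was -0.95 to -0.88 without untreated replicate 2 or CYT replicate 2 or 3, and its later difference, 0.47 and 0.49, did not pass without CYT replicate 2 or IL-1βlow + CYT replicate 1.
Of the other GINS subunits, Gins1 and Gins2 fell and Gins4 did not pass. Gins1 fell by 0.63 and was 0.89 higher after IL-1βlow, at 15.6 to 16.9 CPM in IL-1βlow + CYT against 11.6 to 14.9 CPM in untreated libraries. Gins2 fell by 0.40 (adjusted p = 0.044, edgeR), and this call was lost at -0.40 to -0.29 without any 1 of 9 libraries, the exceptions being untreated replicate 1, CYT replicate 2 and IL-1βlow + CYT replicate 3. It was also lost, at -0.37 to -0.33 (adjusted p from 0.063 to 0.21), with DESeq2, with RLE size factors, with no filter on low counts and in the pairwise fit. Gins4 stood at 0.03, with 14.4 to 19.0 CPM in CYT and 16.0 to 17.1 CPM in untreated libraries. Mcm10 and Cdc45, which act as the helicase is switched on, fell by 0.75 and 0.67 and were 0.76 and 0.65 higher after IL-1βlow.

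Of the 5 polymerase genes, 3 fell with CYT and the same 3 were higher in IL-1βlow + CYT than in CYT cells. Of all genes, 31.7% fell and 25.3% were higher. Pole, the catalytic subunit of the leading strand polymerase, stood at 52.5, 63.9 and 63.2 CPM in untreated and at 60.2, 63.3 and 65.7 CPM in IL-1βlow libraries. It stood at 33.7, 29.7 and 30.0 CPM in CYT and at 57.9, 64.7 and 63.4 CPM in IL-1βlow + CYT libraries. The CYT libraries formed a low group, and the other 9 overlapped. Pole fell by 0.94 (SE 0.10, adjusted p = 1.3e-06, edgeR) and was 0.99 higher after IL-1βlow (SE 0.10, adjusted p = 1.8e-06). Pola1 and Prim1, subunits of the polymerase that lays the primers, fell by 0.89 and 0.28. Pola1 reached 22.7, 32.0 and 38.0 CPM in IL-1βlow + CYT libraries, the first of which lay among the CYT libraries (21.8 to 23.3 CPM). Its difference from CYT, 0.45 (adjusted p = 0.033, edgeR), was 0.28 to 0.45 and did not pass without any 1 of 8 libraries, namely untreated replicate 1 or 2, IL-1βlow replicate 1, CYT replicate 1, 2 or 3, or IL-1βlow + CYT replicate 2 or 3. For Prim1, the fall did not pass without CYT replicate 1 or 2 or untreated replicate 2 (-0.25 to -0.21), nor the later difference of 0.29 without CYT replicate 1 or 2 or IL-1βlow + CYT replicate 3 (0.24 to 0.26).
Pold1 and Pold3, subunits of the lagging strand polymerase δ, did not fall. They stood at 0.17 and 0.08 with CYT, where Pold1 ranged from 36.2 to 42.5 CPM and Pold3 from 39.2 to 46.5 CPM. With 1 library left out, Pold1 stood at 0.09 to 0.26 and Pold3 at 0.04 to 0.17. Pold3 was lower in IL-1βlow + CYT (33.0 to 36.7 CPM) than in CYT libraries with no overlap, at -0.27 (adjusted p = 0.054, edgeR), and with the replicate number as a block it passed (adjusted p = 0.021), as it did at -0.29 with DESeq2, with RLE size factors and with at least 10 counts in every library. It also passed, at -0.36 to -0.27, without untreated replicate 1 or 2, any 1 of the IL-1βlow libraries, CYT replicate 1 or IL-1βlow + CYT replicate 3.

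Of the 9 clamp, clamp loader and fork genes, 6 fell with CYT, 1 rose and 4 were higher in IL-1βlow + CYT than in CYT cells. Of all genes, 31.7% fell, 30.6% rose and 25.3% were higher. Pcna, the ring that tethers polymerases to DNA, stood at 222, 235 and 218 CPM in untreated and at 214, 210 and 229 CPM in IL-1βlow libraries. It stood at 127, 114 and 108 CPM in CYT and at 238, 241 and 235 CPM in IL-1βlow + CYT libraries. The CYT values lay far below all others, and the IL-1βlow + CYT values reached the top of the untreated range. Pcna fell by 0.95 (SE 0.08, adjusted p = 1.1e-07, edgeR), to 51.7% of untreated, and was 1.03 higher after IL-1βlow (SE 0.08, adjusted p = 1.8e-07). Rpa1 and Rpa2, which coat single-stranded DNA, fell by 0.78 and 0.47 and were 0.75 and 0.51 higher after IL-1βlow.

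The clamp loader is a ring of 5 Rfc subunits, of which 2 fell, 1 rose and 2 did not pass. Rfc5 fell by 0.38 and Rfc1 by 0.40. Rfc3 rose by 0.42, from 35.7, 39.6 and 39.7 CPM in untreated to 46.9, 60.0 and 46.5 CPM in CYT libraries, with no overlap. Rfc2 stood at 0.02 and Rfc4 at -0.41 (adjusted p = 0.084, edgeR), where Rfc4 spread from 17.2 to 32.2 CPM within the IL-1βlow libraries. Rfc5 was 0.43 higher in IL-1βlow + CYT than in CYT cells. Rfc1 was at 26.2, 27.9 and 40.5 CPM in IL-1βlow + CYT libraries, so that replicate 3 lay above all untreated libraries (35.3 to 39.1 CPM) and the others among the CYT libraries (25.5 to 31.0 CPM).
Several of these calls rested on single libraries. Rfc1 no longer passed (-0.40 to -0.29) without CYT replicate 1 or 2 or untreated replicate 2 or 3, and Rfc5 (-0.33 to -0.26) without CYT replicate 1 or 3 or untreated replicate 2. The rise of Rfc3 did not pass without CYT replicate 2 (0.29), nor the later difference of Rfc5 without CYT replicate 3 (0.32). With CYT, Rfc4 passed without IL-1βlow replicate 3 (-0.41, adjusted p = 0.03, edgeR). Between IL-1βlow + CYT and CYT cells Rfc4 stood at 0.31 and did not pass (adjusted p = 0.21, edgeR). That difference was 0.17 to 0.41 with 1 library left out, and it passed with the replicate block (0.30, adjusted p = 0.045). Tipin, a fork protection factor, fell by 0.61 from a low level (6.26 to 8.58 CPM to 3.88 to 6.14 CPM). It did not pass, at -0.51 to -0.44, without untreated replicate 2 or CYT replicate 2 or 3.

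All 4 nucleotide supply genes fell with CYT and all 4 were higher in IL-1βlow + CYT than in CYT cells. Rrm2, the regulated small subunit of ribonucleotide reductase, stood at 141, 144 and 134 CPM in untreated and at 122, 116 and 146 CPM in IL-1βlow libraries. It stood at 40.2, 30.7 and 29.9 CPM in CYT and at 129, 123 and 113 CPM in IL-1βlow + CYT libraries. The CYT libraries lay far below all others, and the IL-1βlow + CYT libraries lay just under the untreated ones without overlap. Rrm2 fell by 2.06 (SE 0.12, adjusted p = 3.3e-09, edgeR), to 24% of untreated, and was 1.86 higher after IL-1βlow (SE 0.12, adjusted p = 4.8e-08). The large subunit Rrm1 fell by 0.83 and was 0.83 higher after IL-1βlow. The 2 subunits of the enzyme thus stood at 24% (Rrm2) and 56.1% (Rrm1) of untreated in CYT cells.
Dut, which removes dUTP and so keeps uracil out of DNA, stood at 80.8, 92.1 and 76.2 CPM in untreated and at 86.2, 81.5 and 78.4 CPM in IL-1βlow libraries. It stood at 38.7, 30.3 and 23.4 CPM in CYT and at 79.3, 73.8 and 68.9 CPM in IL-1βlow + CYT libraries. The CYT libraries were lowest, and untreated and IL-1βlow + CYT libraries overlapped. Dut fell by 1.43 (SE 0.14, adjusted p = 9.3e-07, edgeR) and was 1.27 higher after IL-1βlow (SE 0.14, adjusted p = 6.5e-06). Tyms, thymidylate synthase, fell by 0.82 and was 0.62 higher after IL-1βlow, at 43.7, 47.7 and 69.8 CPM in IL-1βlow + CYT against 61.0 to 62.5 CPM in untreated libraries. Without IL-1βlow + CYT replicate 3 that difference was 0.39 (adjusted p = 0.017, edgeR).

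Of the 6 repair and Okazaki fragment genes, 3 fell with CYT and 2 rose, where 31.7% of all genes fell and 30.6% rose. Exo1, a 5′ to 3′ exonuclease of mismatch repair and end resection, stood at 10.1, 8.88 and 9.18 CPM in untreated and at 9.33, 6.26 and 7.65 CPM in IL-1βlow libraries. It stood at 5.05, 4.02 and 5.78 CPM in CYT and at 8.94, 10.8 and 9.15 CPM in IL-1βlow + CYT libraries. The CYT libraries were lowest, with IL-1βlow replicate 2 close above them, and the untreated and IL-1βlow + CYT libraries overlapped. Exo1 fell by 0.92 (SE 0.18, adjusted p = 0.00046, edgeR) and was 0.96 higher after IL-1βlow (SE 0.18, adjusted p = 0.00047). Brip1, a helicase that partners Brca1, fell by 0.88, and Fen1, which trims the flaps of Okazaki fragments, fell by 0.42. Fen1 was 0.59 higher after IL-1βlow, and Brip1 0.56 higher, a call that was lost without CYT replicate 1 or 2 or IL-1βlow + CYT replicate 3 (0.36 to 0.53).
Lig1, the ligase that joins those fragments, rose by 0.28 with CYT, to 127 to 141 CPM from 111 to 112 CPM. Ung, which cuts uracil out of DNA, rose by 0.34, to 54.1, 68.1 and 61.0 CPM from 47.6 to 49.2 CPM, and did not pass without CYT replicate 2 (0.26). It was -0.20 from CYT after IL-1βlow, a difference that passed without CYT replicate 1 (-0.32, adjusted p = 0.029, edgeR) and stood at -0.12 and -0.11 without CYT replicate 2 and IL-1βlow + CYT replicate 3. Thus within uracil handling, Dut fell and Ung rose in the same cells. Blm, a RecQ helicase, stood at 0.03 with CYT and at -0.10 between IL-1βlow + CYT and CYT cells.

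Of the 5 chromatin genes, 3 fell with CYT, 1 rose, 4 were higher in IL-1βlow + CYT than in CYT cells and 1 was lower. Of all genes, 31.7% fell, 30.6% rose, 25.3% were higher and 25.5% lower. Hells, a chromatin remodeller needed for DNA methylation, stood at 25.7, 20.0 and 17.9 CPM in untreated and at 11.8, 9.94 and 19.7 CPM in IL-1βlow libraries. It stood at 5.81, 4.02 and 6.54 CPM in CYT and at 8.45, 9.85 and 20.6 CPM in IL-1βlow + CYT libraries. The CYT libraries were lowest, and replicate 3 of both IL-1βlow groups lay within the untreated range while their replicates 1 and 2 lay under it. Hells fell by 1.95 (SE 0.33, adjusted p = 0.00015, edgeR) and was 1.24 higher after IL-1βlow (SE 0.33, adjusted p = 0.0067). Without IL-1βlow + CYT replicate 3, that later difference was 0.74 (adjusted p = 0.036, edgeR).

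Chaf1b, the middle subunit of the histone chaperone CAF-1, moved against the rest. It stood at 25.5, 28.3 and 30.8 CPM in untreated and at 31.9, 30.8 and 28.1 CPM in IL-1βlow libraries. It stood at 59.2, 67.7 and 59.3 CPM in CYT and at 37.5, 39.2 and 36.1 CPM in IL-1βlow + CYT libraries. The CYT libraries lay highest, and the IL-1βlow + CYT libraries lay between them and the overlapping untreated and IL-1βlow libraries. Chaf1b rose by 1.14 (SE 0.10, adjusted p = 2.2e-07, edgeR), to 220% of untreated, and was 0.72 lower after IL-1βlow (adjusted p = 3.2e-05). Chaf1a, the large subunit of CAF-1, stood at -0.16 with CYT (adjusted p = 0.13, edgeR), and at -0.22 to -0.08 with 1 library left out. It was 0.26 higher in IL-1βlow + CYT than in CYT cells (adjusted p = 0.024), a call that was lost at 0.18 to 0.25 without any 1 of 8 libraries, namely any of the replicates 1, replicate 2 of untreated, IL-1βlow or IL-1βlow + CYT, or CYT replicate 3. Slbp, which binds histone mRNA, and Uhrf1, which carries DNA methylation to the new strand, fell by 0.64 and 0.74 and were 0.55 and 0.57 higher after IL-1βlow.

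All 4 regulators of S-phase entry fell with CYT and all 4 were higher in IL-1βlow + CYT than in CYT cells. E2f8, an atypical E2F that represses E2F targets late in S phase, stood at 42.0, 44.2 and 45.3 CPM in untreated and at 47.9, 44.2 and 42.2 CPM in IL-1βlow libraries. It stood at 23.7, 23.4 and 19.5 CPM in CYT and at 41.5, 49.7 and 44.0 CPM in IL-1βlow + CYT libraries. Only the CYT libraries stood apart. E2f8 fell by 0.98 (SE 0.10, adjusted p = 1.8e-06, edgeR) and was 1.02 higher after IL-1βlow (SE 0.10, adjusted p = 2.8e-06). The activator E2f1 fell by 0.46 and was 0.36 higher after IL-1βlow, a call lost without CYT replicate 3 or IL-1βlow + CYT replicate 1 or 2 (0.23 to 0.33).
Ccne1 and Ccne2 encode the E cyclins, which activate Cdk2 at the start of S phase. Ccne2 stood at 14.8, 14.6 and 8.75 CPM in untreated and at 8.41, 6.13 and 11.7 CPM in IL-1βlow libraries. It stood at 3.48, 3.38 and 3.63 CPM in CYT and at 5.78, 5.17 and 12.5 CPM in IL-1βlow + CYT libraries. The CYT libraries were lowest and tight, and in every other group replicate 3 stood apart from replicates 1 and 2, below them in untreated and above them in both IL-1βlow groups. Ccne2 fell by 1.86 (SE 0.33, adjusted p = 0.00023, edgeR) and was 1.16 higher after IL-1βlow (SE 0.34, adjusted p = 0.011). Without IL-1βlow + CYT replicate 3, this later difference was 0.64 (adjusted p = 0.067, edgeR) and did not pass. Ccne1 fell by 0.98 and was 0.98 higher after IL-1βlow.

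**Figure D3:**
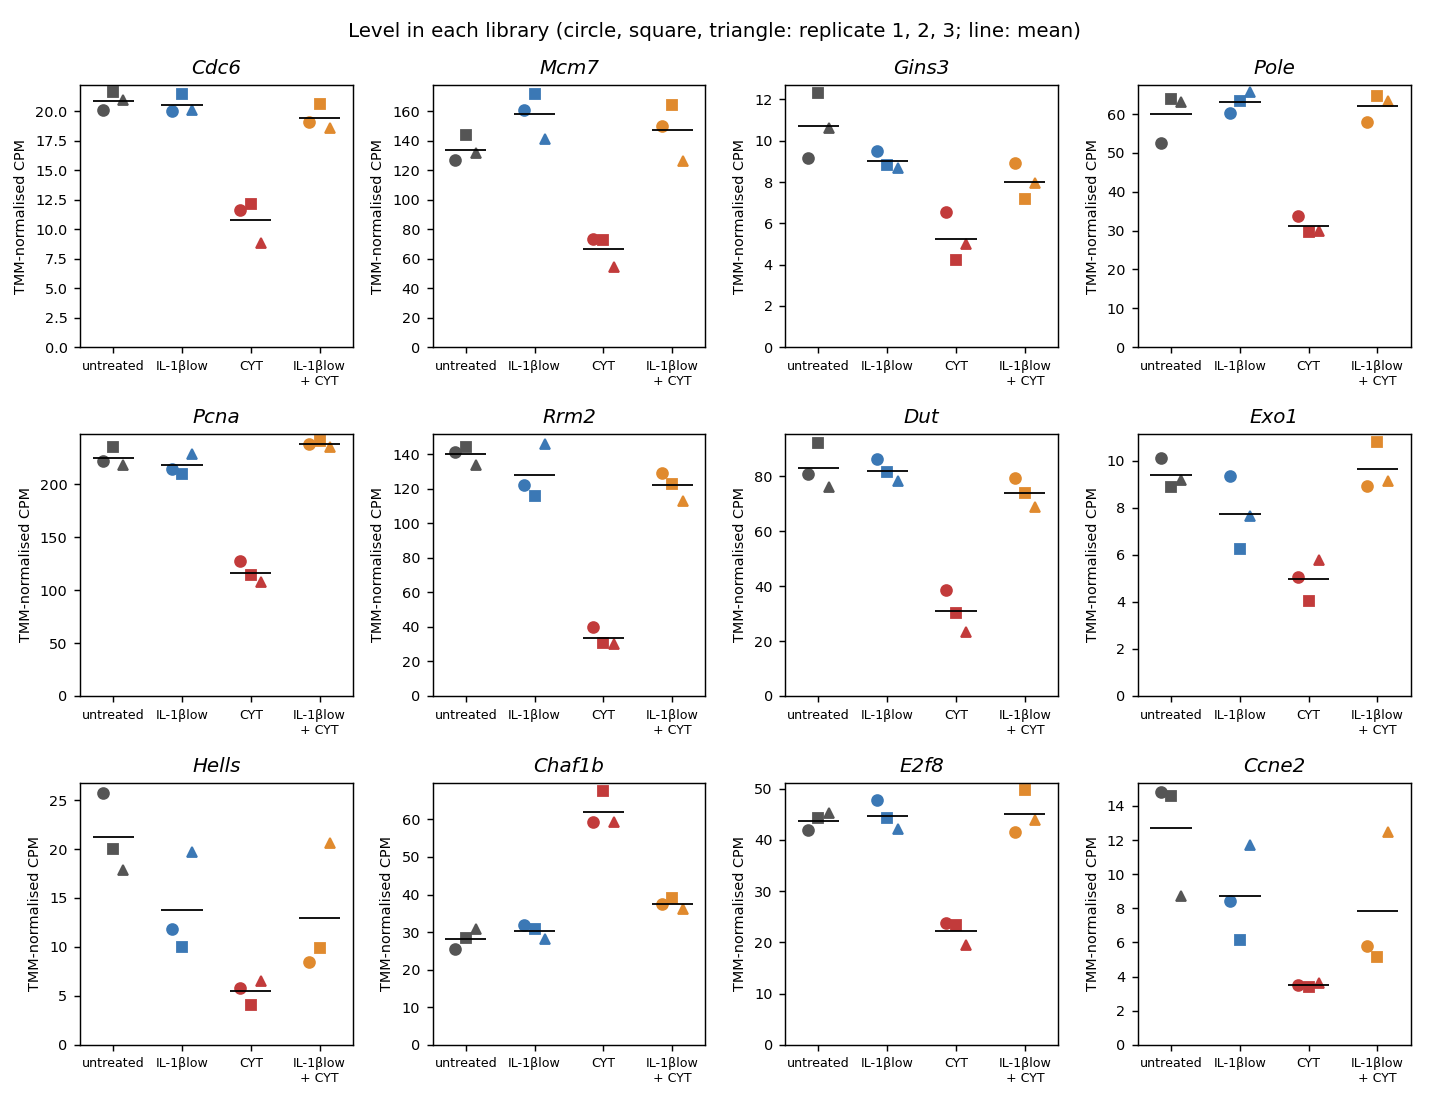
TMM-normalised CPM, on axes that start at 0, of 12 members in each library, with marker shape for the replicate number and a line at the group mean. CYT libraries are lowest for all but Chaf1b, where they are highest, and for Hells and Ccne2 the triangles of both IL-1βlow groups lie above the other libraries of their group.

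IL-1βlow alone called 0 of 48 members under either rule, against 1.35% of all genes at an adjusted p under 0.05 and 0.433% under the study's thresholds (edgeR). At an unadjusted p under 0.05 there were 4 members, Rfc3, Ung, Lig1 and Chaf1a, all higher (8.33%, against 13.8% of all genes), and the smallest adjusted p was 0.22. DESeq2 also called 0, but with no filter on low counts 2 members were called, against 3.03% of all genes. The replicate block called 1, Rfc3 at 0.37 (adjusted p = 0.034, edgeR), against 4.89% of all genes. Fold changes ran from -0.62 (Hells) to 0.38 (Rfc3), with a median of 0.04 against 0 over all genes. For 9 members (18.8%) all 3 IL-1βlow libraries lay above all untreated ones, as they did for 13% of all genes. Rpa1, for instance, stood at 87.9, 90.5 and 87.8 CPM in IL-1βlow and at 77.4, 83.2 and 76.5 CPM in untreated libraries. For Tyms alone (2.08%, against 10.6% of all genes) they all lay below, at 44.8 to 58.7 CPM against 61.0 to 62.5 CPM.

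In IL-1βlow + CYT against untreated cells 2 of 48 members (4.17%) were called, against 21.8% of all genes, and 0 under the study's thresholds, against 5.99% (edgeR). At an unadjusted p under 0.05 there were 7 members (14.6%, against 34% of all genes), Gins3, Pola1, Rfc3, Lig1, Chaf1b, Hells and Ccne2. The members called were Chaf1b, 0.42 higher (adjusted p = 0.0068, edgeR), and Lig1, 0.27 higher (adjusted p = 0.028). The median difference was 0.01, and the 95% interval of the difference lay within 0.5 of 0 on the log2 scale for 35 members and within 1 for 46, all but Hells (-1.38 to -0.05) and Ccne2 (-1.37 to -0.04). Of the 35 members that fell with CYT, 31 (88.6%) were higher again after IL-1βlow and 0 were called against untreated cells. Of all 4543 genes that fell with CYT, 65.1% were higher again and 26% were called against untreated cells. Genes picked for low values in the CYT libraries enter both comparisons with CYT, so these shares were not tested. Their median level was 58.1% of untreated in CYT and 97.9% in IL-1βlow + CYT cells. Orc1, Gins2, Rfc1 and Tipin fell with CYT and did not pass between IL-1βlow + CYT and CYT cells.

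The count against untreated cells depended on single libraries. Without IL-1βlow + CYT replicate 3, 10 members (20.8%) were called, where the calls over all genes also rose, to 32.4%. Of these Pola1 (-0.61), Rfc1 (-0.46), Tipin (-0.66), Tyms (-0.43), Brip1 (-0.52), Hells (-1.21) and Ccne2 (-1.22) were lower, and Rfc3 (0.43), Lig1 (0.33) and Chaf1b (0.44) were higher. Hells and Ccne2 then also passed the study's thresholds. Without untreated replicate 1 the count was 0, against 16.6% of all genes, with Chaf1b at 0.32 (adjusted p = 0.058, edgeR) and Lig1 at 0.25 (adjusted p = 0.1). Chaf1b alone was called without untreated replicate 2 or 3 or IL-1βlow + CYT replicate 1 or 2, where Lig1 stood at 0.22 to 0.28. Rfc3 (0.36) was added without CYT replicate 2 and Pola1 (-0.44) without IL-1βlow replicate 3.

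Between IL-1βlow + CYT and IL-1βlow cells, both preconditioned and of which the former were challenged, 0 of 48 members were called by edgeR, against 13% of all genes at an adjusted p under 0.05 and 3.88% under the study's thresholds. At an unadjusted p under 0.05, Rpa1 and Uhrf1 were lower and Chaf1b higher (3 members, 6.25%, against 23.6% of all genes). Chaf1b came nearest, at 0.31 (adjusted p = 0.051), and with the replicate number as a block it passed (0.31, adjusted p = 0.028). Chaf1b also passed (0.31 to 0.34) without any 1 of the CYT libraries or without IL-1βlow + CYT replicate 3, and in the last case Rfc1 passed too (-0.40, adjusted p = 0.021, edgeR). DESeq2 called 1 member. The median difference was -0.07, with a range from -0.40 (Tipin) to 0.31 (Exo1).

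Whether the effect of CYT itself differed with and without IL-1βlow was tested by the interaction term of the fit. It was higher in preconditioned cells for 25 of 48 members (52.1%), against 18.1% of all genes, and lower for 2 (4.17%), against 19.1% (edgeR). The 2 were Chaf1b (-0.83, adjusted p = 0.00046) and Ung (-0.49, adjusted p = 0.021), which had risen with CYT. Under the study's thresholds 5 members passed upward (10.4%), against 5.48% of all genes, and 0 downward, against 5.2%. These 5 were Rrm2 (1.98), Hells (1.85), Dut (1.28), Exo1 (1.23) and Pcna (1.08). By class, the term was higher for 4 of 4 nucleotide supply, 3 of 4 S-phase entry, 7 of 12 helicase, 3 of 5 polymerase, 3 of 5 chromatin, 2 of 6 repair, 2 of 9 clamp and 1 of 3 licensing genes. The count of 5 became 8 without IL-1βlow + CYT replicate 1 (with Tyms, E2f8 and Ccne2), without IL-1βlow replicate 3 (with Rrm1, Tyms and Ccne2) or without IL-1βlow + CYT replicate 3 (with Mcm7, E2f8 and Ccne1). Of all genes, 1393 of 14301, 1678 of 14265 and 1449 of 14278 then passed in either direction, against 1530 of 14324 with all libraries. At an adjusted p under 0.05, the call of Mcm5 was lost (0.38 to 0.45) without replicate 1 of IL-1βlow, CYT or IL-1βlow + CYT, replicate 2 of untreated or IL-1βlow + CYT, or replicate 3 of IL-1βlow or CYT. That of Prim1 was lost (0.30 to 0.39) without replicate 1 or 2 of untreated, IL-1βlow or CYT, or IL-1βlow + CYT replicate 3. That of Pola1 was lost (0.62 to 0.71) without IL-1βlow replicate 1 or 2 or untreated replicate 2, and those of Fen1 (0.34), Gins3 (0.71) and Ung (-0.40) without CYT replicate 3, untreated replicate 2 and CYT replicate 2.

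The plot of class levels sets the 8 classes side by side. Their median log2 fold changes with CYT were -1.13 for nucleotide supply, -0.98 for S-phase entry, -0.64 for chromatin, -0.60 for licensing, -0.59 for the helicase, -0.41 for the clamp and fork, -0.28 for polymerases and -0.19 for repair genes. Between IL-1βlow + CYT and CYT cells the medians were 1.05, 1.00, 0.55, 0.29, 0.64, 0.31, 0.29 and 0.28 in the same order, and that of the clamp and fork genes was 0.18 without IL-1βlow + CYT replicate 3. That of the licensing genes was 0.12 without IL-1βlow + CYT replicate 2 and 0.16 without CYT replicate 3. The order of the classes was not tested, and the smallest of them hold 3 or 4 genes.

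**Figure D4:**
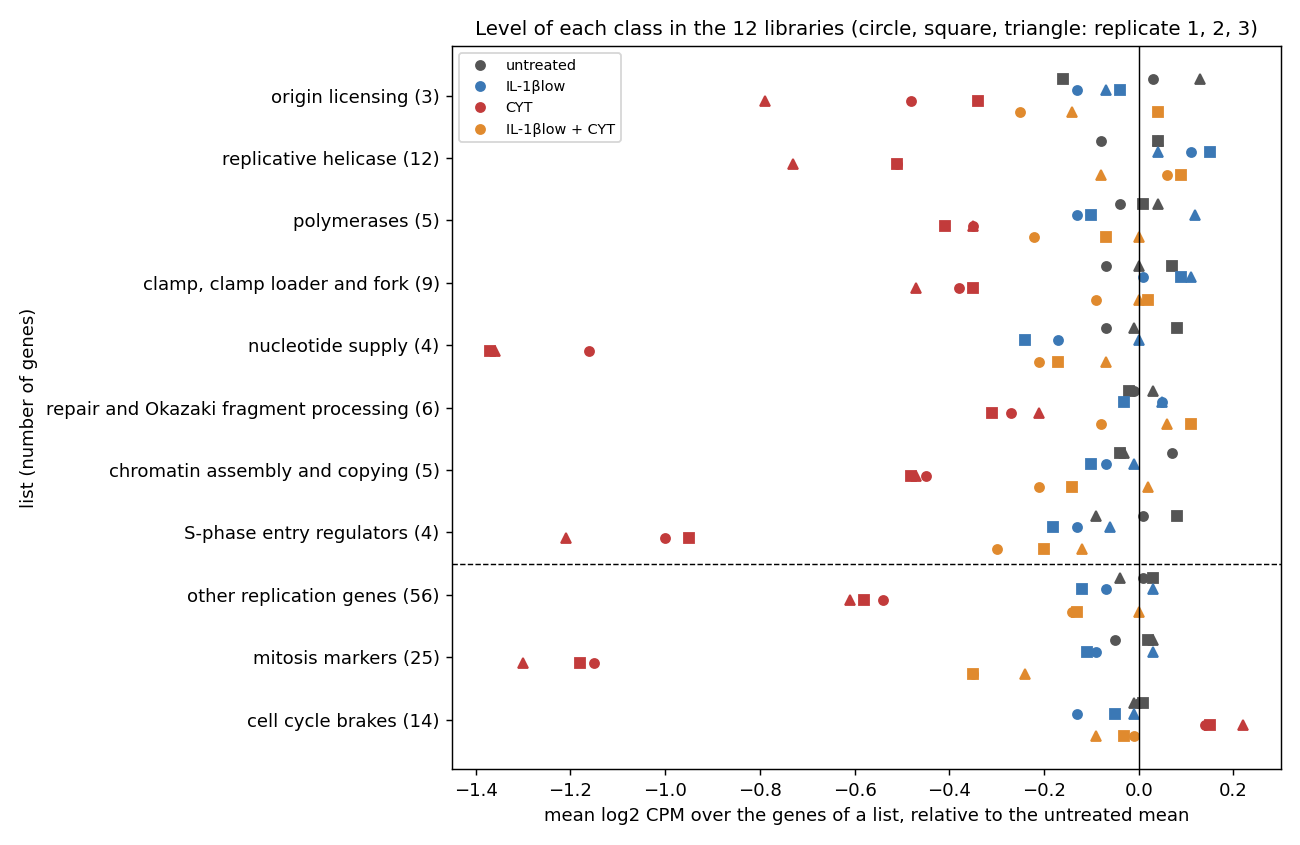
Each point is 1 library, placed at the mean log2 CPM over the genes of a list relative to the untreated mean, with colour for the group, shape for the replicate number, the 8 classes above the dashed line and 3 further lists below it. CYT libraries lie from -1.37 to -1.16 for nucleotide supply and from -0.31 to -0.21 for repair genes, and from 0.14 to 0.22 for the 14 cell cycle brakes, a mean that Gadd45a, Gadd45b and Cdkn1a pull up, since 9 of the 14 had a log2 fold change under 0.

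Genes outside the 48 were read from lists drawn up in the same way. Of 56 other replication genes, 37 fell with CYT (14 of them under the study's thresholds) and 1 rose, with a median of -0.52, and 33 were higher in IL-1βlow + CYT than in CYT cells. Of all genes, 31.7% fell with CYT (11.6% under the study's thresholds), 30.6% rose, and 25.3% were higher in IL-1βlow + CYT than in CYT cells. The largest falls among the 56 were those of Pole2 (-1.84), the second subunit of the Pole enzyme, of Cdk2 (-1.65), the kinase of the E cyclins, and of Ccna2 (-1.61), the S-phase cyclin. All 25 mitosis genes fell, with a median of -1.22, led by Top2a (-2.11), Cenpf (-1.85) and Ndc80 (-1.78), and 23 were higher after IL-1βlow. In IL-1βlow + CYT against untreated cells, 9 of the 25 mitosis genes were lower and 0 higher, where 21.8% of all genes were called in either direction. Their median was -0.31, where the members' median was 0.01.
Of 14 cell cycle brakes, 3 rose with CYT and 3 fell, with a median of -0.09, where 30.6% of all genes rose and 31.7% fell. Gadd45b rose from 7.39, 7.58 and 7.60 CPM in untreated to 36.6, 67.3 and 71.3 CPM in CYT libraries and was at 7.17, 8.30 and 9.75 CPM in IL-1βlow + CYT libraries. Gadd45a rose by 2.59 and Cdkn1a, the Cdk inhibitor p21, by 1.06, and both were lower in IL-1βlow + CYT than in CYT cells (-1.04 and -1.26). In that comparison 5 of the 14 brakes were higher and 4 lower, with a median of 0.06, where 25.3% of all genes were higher and 25.5% lower. Cdkn2c, an inhibitor of Cdk4 and Cdk6, fell by 2.19. Of 11 β-cell genes, 10 fell with CYT, led by Ins2 (-2.64), Nkx6-1 (-1.75) and Ins1 (-1.74), against 31.7% of all genes. Between IL-1βlow + CYT and CYT cells 11 of 11 were higher, against 25.3% of all genes. In IL-1βlow + CYT against untreated cells, where 21.8% of all genes were called in either direction, 5 of the β-cell genes were lower and 1 higher. Their median was -0.23. With IL-1βlow alone, where 1.35% of all genes were called, 1 β-cell gene was lower. Their summed level was 44020 to 50800 CPM in untreated and 39270 to 45720 CPM in IL-1βlow libraries. It was 14510 to 15390 CPM in CYT and 21220 to 26710 CPM in IL-1βlow + CYT libraries. Their part in the members' changes was not tested.

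For 18 members another gene lies over the same stretch in the GRCr8 annotation, so part of their reads could belong to a neighbour, since the strand setting of the counting is not given in the sources used here. For Gins2 (Gse1), Rrm2 (Cys1), Fen1 (Tmem258), Lig1 (Zswim9), Uhrf1 (Arrdc5) and Ccne2 (Ints8) the neighbour is another protein-coding gene.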

How the data were processed

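PolyA RNA of INS-1E cells was measured in 12 libraries, 4 groups of 3. The authors made the libraries with a TruSeq kit, checked reads with FastQC, aligned them to mRatBN7.2 and counted them with featureCounts. What was deposited is a table of raw counts (whole numbers) by gene symbol and library. Trimming, alignment and multi-mapping rules are therefore part of the counts. All columns were matched to samples by library name and 0 were left unused.

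The filter was CPM over 1 in 2 libraries or more (14324 genes, with 99.9% of counts). Kept genes were put on 1 scale by TMM in edgeR 4.0.16 under R 4.3.3. One quasi-likelihood fit over the 4 groups (8 residual degrees of freedom, common biological coefficient of variation 0.123) gave 5 pairwise contrasts and the interaction, 6 in all. In the study, exactTest of edgeR was the test. The study's thresholds were applied beside an adjusted p under 0.05 without a fold minimum. Standard errors came from the fold change and F statistic. Levels are TMM-normalised CPM and are compared within a gene only.

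The members, classes and other lists were chosen with earlier results of these data known. All 48 members are accounted for. Values in every library are given for members past the thresholds with CYT or between IL-1βlow + CYT and CYT cells and, where a class had none, for its member with the smallest p with CYT. Further values were added after they were seen. Of each other list, the 3 largest changes past the thresholds with CYT are named, or fewer where fewer passed, and Cdkn1a was added after its values were seen.

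Replicate numbers come from the labels, which do not say that a number marks a shared culture. Deviations from the group mean correlated at 0.116, 0.475 and 0.453 between same-numbered CYT and IL-1βlow + CYT libraries, and at 0.179, 0.469 and 0.52 between same-numbered IL-1βlow and IL-1βlow + CYT libraries. The main fit nevertheless held no replicate term, so its values, standard errors and p-values are unpaired. For comparisons among these 3 groups, the value with the replicate number as a block is printed beside the unpaired result where the block changes a call. Same-numbered correlations with untreated libraries were -0.0163 to 0.123 for replicate 1, 0.157 to 0.181 for replicate 2 and -0.188 to -0.119 for replicate 3. Comparisons with untreated libraries were not treated as paired, though some of these values exceeded the 0.116 above. Libraries of a group differed by a chi-square of 7.11 to 27.5 per degree of freedom, where sampling alone gives 1, so none was a duplicate.

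The alternatives were other size factors, DESeq2 1.42.0, exactTest, other filters, pairwise fits, the replicate block, leaving out Rn45s and leaving out each library. In simulated counts for CYT against untreated cells (14058 genes), 87 of 100 genes changed by 1.5 and 62 of 100 changed by 0.8 on the log2 scale were recovered at an adjusted p under 0.05, with 5 unchanged genes called. Promoters were read from RefSeq tables of GRCr8, which is not the authors' build.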

Additional observations from a re-analysis of the deposited data

Results flagged for a closer look

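For 5 members the effect of CYT differed between preconditioned and other cells by more than 1 on the log2 scale at an adjusted p below 0.01, by edgeR's test of the interaction term with Benjamini-Hochberg adjustment. That is 10.4% of the members, close to the 10.7% of all genes that did so in either direction. At an adjusted p under 0.05 it differed for 27 members (56.2%), against 37.3% of all genes. Values are log2 changes with CYT without and with IL-1βlow before it. Rrm2 fell by 2.06 without it and stood at -0.07 with it, a difference of 1.98 (SE 0.16, adjusted p = 1.8e-06). For Hells the changes were -1.95 and -0.10, a difference of 1.85 (SE 0.45, adjusted p = 0.0059). For Dut they were -1.43 and -0.15, a difference of 1.28 (SE 0.20, adjusted p = 0.00023). For Exo1 they were -0.92 and 0.31, a difference of 1.23 (SE 0.25, adjusted p = 0.0016). For Pcna they were -0.95 and 0.13, a difference of 1.08 (SE 0.11, adjusted p = 8.7e-06). Hells did not pass the study's thresholds for this difference without untreated replicate 1 or 2, IL-1βlow replicate 1 or 2, or CYT replicate 1 or 2, where it stood at 1.64 to 1.87.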

How the results depend on the processing

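Over 125 results for single members, 86 kept their direction and their side of an adjusted p of 0.05 under every alternative run, and 9 changed sign under at least 1. Of 2571 single values, 2433 stayed on the same side, 102 no longer passed, 24 newly passed and 12 changed sign. The 125 results cover all 48 members for CYT against untreated and IL-1βlow + CYT against CYT cells. For IL-1βlow + CYT against untreated cells and for the interaction they cover only the 2 and 27 members already called. Other members newly called there are thus not among the 24. Other size factors moved no count of members beyond 1.5 times. Between IL-1βlow + CYT and CYT cells, Brip1 (0.54), Chaf1a (0.24), E2f1 (0.35), Mcm2 (0.31) and Pola1 (0.44) did not pass in the pairwise fit, nor Chaf1a (0.23) and Prim1 (0.26) with no filter, which ended the calls of Prim1 with CYT (-0.21) and of Fen1 (0.38) and Prim1 (0.34) for the interaction.

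At an adjusted p under 0.05, members called between IL-1βlow + CYT and untreated cells were 4 with exactTest (8.33%, against 23.9% of all genes), 6 with no filter on low counts (12.5%, against 15.4% of 24221 genes) and 6 with the replicate block (12.5%, against 31.8%), in place of 2. Between IL-1βlow + CYT and IL-1βlow cells they were 1 with exactTest (14.9% of all genes), 1 with DESeq2 (14.4%) and 1 with the replicate block (18.4%), in place of 0. For IL-1βlow alone they were 2 with no filter (3.03% of all genes) and 1 with the replicate block (4.89%), in place of 0. Same-numbered libraries correlated at 0.191 on average, and 9 of 12 libraries were closest to their own number, a hint from the data. The average for other numbers, -0.0943, adds nothing to it. It is largely set by the first average, since deviations within a group of 3 sum to 0. With CYT, Mcm2 passed on total counts only (-0.27) and with at least 10 counts in every library (-0.26), and Rfc4 with no filter (-0.34) and in the pairwise fit (-0.37). The block made calls of Mcm2 (-0.26) and Rfc4 (-0.43) with CYT, and it raised the members called for the interaction from 27 to 34 (31 higher, 3 lower; 46.6% of all genes), with Mcm6, Cdc45, Rfc3, Rfc4, Rfc5, Brip1 and E2f1 added and Ccne2 past the study's thresholds (1.72, adjusted p = 0.0039). Untreated libraries, which enter both, were not paired. For the paired comparisons it changed no call beyond those of Pold3, Rfc4, Ccne2 and Chaf1b given above. The cause of these shifts was not tested.

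Leaving out 1 library gave 3 to 8 members past the study's thresholds between IL-1βlow + CYT and CYT cells, 0 to 2 between IL-1βlow + CYT and untreated cells and 4 to 8 for the interaction. Of all genes, 1534 to 1939, 748 to 997 and 1276 to 1707 passed them in the same order, in either direction. At an adjusted p under 0.05, leaving out 1 library gave 0 to 10 members against untreated cells, where 15.8 to 32.4% of all genes were called, and 0 to 2 against IL-1βlow cells, where 9.91 to 14.2% were. Lower with CYT than in untreated cells were 30 to 36 members, against 27.3 to 33.7% of all genes. Higher in IL-1βlow + CYT than in CYT cells were 28 to 33 members, against 19.9 to 25.8%. Higher for the interaction were 22 to 28 members, against 13.5 to 19.7%. The members' median ranged from -0.64 to -0.48 with CYT and from -0.05 to 0.03 between IL-1βlow + CYT and untreated cells. Class medians between IL-1βlow + CYT and CYT cells ranged from 0.12 to 0.40 for licensing, 0.55 to 0.70 for the helicase, 0.18 to 0.39 for the clamp and 0.49 to 0.56 for chromatin genes.

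Signs changed only for members that had not passed. With CYT, leaving out 1 library gave -0.10 to 0.12 for Rfc2 (below 0 without untreated replicate 1 at -0.01 or CYT replicate 2), -0.03 to 0.14 for Blm (below 0 without untreated replicate 1 or CYT replicate 3), -0.02 to 0.17 for Gins4 (below 0 without CYT replicate 1) and -0.21 to 0.06 for Cdt1 (above 0 without CYT replicate 3). Between IL-1βlow + CYT and CYT cells it gave -0.01 to 0.21 for Rfc2 (without CYT replicate 1), up to 0.04 for Blm (without IL-1βlow + CYT replicate 1), -0.15 to 0.07 for Rfc3 (above 0 without CYT replicate 2, or at 0.02 without IL-1βlow + CYT replicate 3), -0.06 to 0.25 for Rfc1 and -0.05 to 0.38 for Tipin, the last pair below 0 without IL-1βlow + CYT replicate 3.

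Over all genes, IL-1βlow alone called 62 under the study's thresholds, 138 with exactTest, 139 with DESeq2, 229 with no filter and 141 with the block, and 193, 393, 376, 733 and 701 at an adjusted p under 0.05, where pairwise fits called 340. Depth limits Ccne2, Gins3, Exo1, Hells and Tipin most, whose lowest counts were 58, 72, 69, 69 and 68.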
